A study of Rattus norvegicus with 11 samples.

Results

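The hippocampal RNA of rats that received deep brain stimulation (DBS) of the thalamus was set against that of sham-operated rats. These were the 4 arrays titled DBS and the 4 titled sham, 8 of the 11 arrays of the study; the other 3 held naive rats. In the DBS group, high-frequency current was applied to the ventrolateral thalamus for 1 hour a day over 14 days. Sham rats had the electrode placed and were never stimulated, and naive rats had neither; handling was alike in the 3 groups. All rats were male albino Wistar rats aged 12 weeks, and each array held the hippocampi of 3 rats, pooled. Every pool was labelled with Cy5 and hybridised against the same Cy3-labelled reference, a mixture of hippocampal, thalamic and cortical tissue from 4 naive, 5 sham-operated and 4 stimulated rats.

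In DBS, an implanted electrode delivers pulses to a deep nucleus; applied to the motor thalamus it is used against tremor. The ventrolateral nucleus of the thalamus passes signals from the cerebellum and the basal ganglia to the motor cortex. The hippocampus, which serves memory and spatial navigation, is not a direct target of that nucleus, and its RNA is therefore read at a distance from the electrode. Because placing an electrode injures tissue by itself, the sham group separates the current from the operation.

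The deposited value is the log ratio of hippocampal pool over reference for each of 45220 numbered array features, taken as log2. Positive values were read as more RNA in the hippocampal pool, from the dyes and the wording of the labels; if the deposited ratio ran the other way, every sign below would turn. The log base and the direction could not be checked on known genes, because the platform's gene names could not be tied to the numbered rows. Results are therefore given by feature number and by feature set, no marker of hippocampal tissue could be looked up, and no gene is named. In such pooled tissue, fewer cells of a type and less RNA per cell cannot be told apart. The median of the absolute log2 ratio was 0.126 on every one of the 11 arrays and equal to 6 decimals, so the arrays had been brought to a common scale before deposit. A difference between DBS and sham in the overall width of the ratios would have been removed by that step, and only differences of features relative to the bulk can be seen.

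DBS and sham arrays formed separate groups. Pearson correlations over all features averaged 0.875 among DBS arrays (0.852 to 0.896 over 6 pairs), 0.893 among sham arrays (0.867 to 0.932 over 6 pairs) and 0.837 between DBS and sham arrays (0.787 to 0.884 over 16 pairs). The correlation within groups exceeded that between groups by 0.0472 (exact two-sided permutation p = 0.0286, the smallest that 4 against 4 arrays allow). Every array correlated better, on average, with the other arrays of its own group than with the opposite group. The margin was narrowest for DBS replicate 4, at 0.875 with the other DBS arrays and 0.865 with the sham arrays. It was widest for sham replicate 4, which averaged 0.833 with the DBS arrays and 0.903 with the other sham arrays. Single pairs did not keep to the groups: DBS replicate 4 correlated at 0.884 with sham replicate 2 and at 0.852 with DBS replicate 2.

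Against sham, DBS changed 1275 features (2.82% of 45220), of which 877 (1.94%) were higher and 398 (0.88%) were lower in DBS (limma over all 11 arrays, adjusted p under 0.05). On the log2 scale, increases had a median of 0.40 with quartiles at 0.29 and 0.59, and decreases one of -0.28 with quartiles at -0.36 and -0.23. The call tests a difference from 0 and not a fold, so the following counts go by the estimated difference. It was at least 1.5-fold for 222 features called higher and 34 called lower. It was at least 3-fold for 16 called higher and 2 called lower. The 16 higher features past 3-fold include the 10 features of set 1 and the 2 called features of set 2, described below. With the 8 DBS and sham arrays alone, and also with robust eBayes, 0 features of these sets passed. The 18 features past 3-fold held 8 distinct profiles over the arrays, since several are near-copies of each other. Linked in the same way, within a distance of 0.3, the 256 features past 1.5-fold formed 156 groups, all 1275 changed features 426, and the 623 that passed in each fit without 1 DBS or sham array 264. Features with small ratios also chain together in this way: the largest of the 426 groups held 492 features up to 2.89 apart, so the groups are not counts of separate transcripts.

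A stricter test, limma's treat, asked which features differed by more than 1.2-fold and not merely from 0. It called 49 features (0.108%), 37 higher and 12 lower in DBS. Of these 49, 20 differed by at least 2-fold. None had overlapping arrays, which the test itself favours, and 9.42% of all features had no overlap. The count of 49 was the least stable of the comparison: it was 228 without DBS replicate 4. It came to 19 when DBS replicate 1 was left out and to 31 when DBS replicate 2 was. It came to 21 without sham replicate 3, 10 without sham replicate 4 and 32 without naive replicate 2.

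The precision of the fit limits what was missed. The SE of a difference, with a spread estimated over all 11 arrays, had a median of 0.0596 on the log2 scale, and its 95% interval reached a median of 0.129 to either side. For 43854 features (97%) the whole interval lay inside a 1.5-fold difference in either direction, and for 34837 (77%) it lay inside 1.2-fold. The whole interval lay beyond 1.5-fold for 117 features and beyond 3-fold for 0. These are intervals for single features, not for all jointly. They rest on the spread over all 11 arrays and were not computed with the DBS and sham arrays alone, where fewer features passed. Another 35 features differed by at least 2-fold and did not pass, 20 of them higher and 15 lower in DBS. Their SD between arrays had a median of 0.984 in DBS and 0.411 in sham, against 0.0834 in DBS and 0.0738 in sham over all features.

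**Figure D1:**
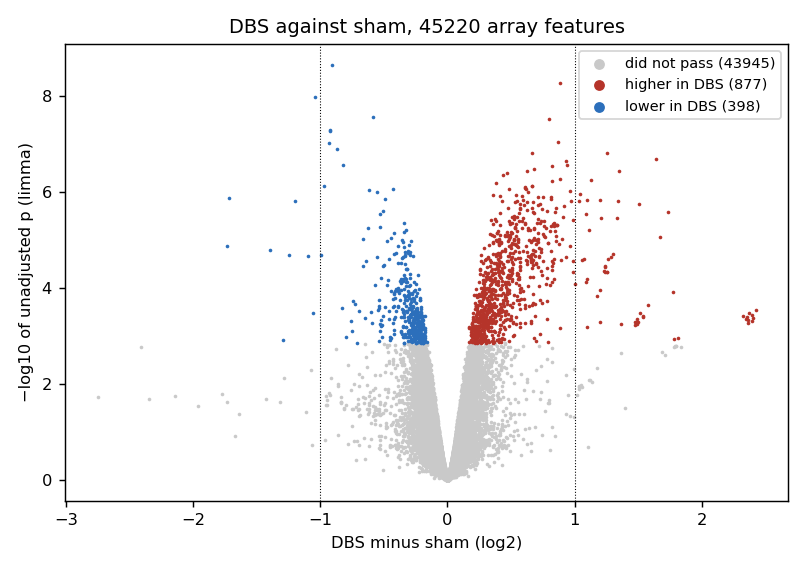
Difference of DBS minus sham (log2, x axis) against the −log10 of the unadjusted limma p (y axis) for all 45220 features; red points are the 877 features called higher in DBS, blue the 398 called lower, grey those that did not pass, and dotted lines mark 2-fold. The tight groups of red points beyond 2-fold are near-identical features.

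Most calls showed no overlap of the single arrays, which the calling itself favours, since it used the same arrays. The 4 DBS arrays lay all above or all below the 4 sham arrays for 1235 of the 1275 changed features, which were 843 with DBS above and 392 with DBS below. Over all features, 4258 (9.42%) had no overlap, 2154 (4.76%) with DBS above and 2104 (4.65%) with DBS below. The 40 changed features with overlapping arrays had larger differences, with a median size of 1.09, and 20 of them differed by at least 2-fold. Sets 1 and 3, described below, had overlapping set means and 10 called features each, so near-copies may weigh on this median. Among features called higher, the SD between arrays had a median of 0.121 in DBS, 0.0883 in sham and 0.061 in naive. Among features called lower it was 0.0839 in DBS, 0.0669 in sham and 0.0571 in naive. The naive arrays entered the fit to estimate the spread, and with the 8 DBS and sham arrays alone 806 features passed, 606 higher and 200 lower.

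The 4 DBS arrays lay at unequal distances from sham. Each array was placed on a scale from 0 at the sham mean to 1 at the DBS mean. Over the 877 features called higher, the median position was 1.05, 1.03, 1.21 and 0.71 for DBS replicates 1 to 4, and 0.08, 0.13, -0.15 and -0.06 for sham replicates 1 to 4. DBS replicate 4 was the DBS array nearest to sham for 581 of them (66.2%), and sham replicate 2 was the sham array nearest to DBS for 406 (46.3%). Over the 398 features called lower the DBS arrays were closer together, at 0.95, 1.07, 1.04 and 0.92, against -0.03, -0.02, -0.01 and 0.05 for the sham arrays. DBS replicate 4 was then nearest to sham for 126 (31.7%). Without it the test called 943 features higher and 354 lower, and 1058 of the 1275 calls were shared.

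**Figure D2:**
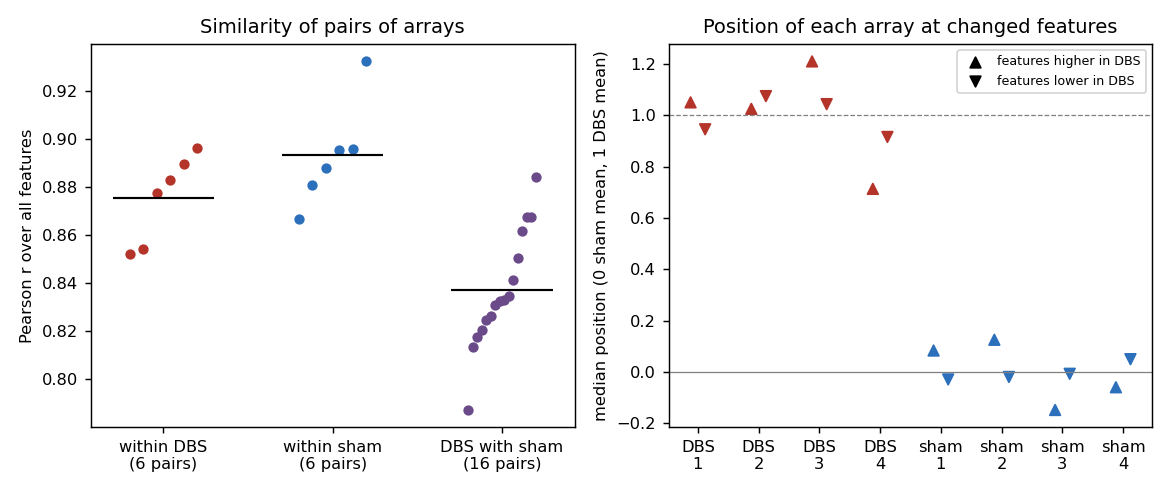
Left, Pearson correlation of each pair of arrays over all features, with bars at the means (0.875 within DBS, 0.893 within sham, 0.837 between DBS and sham). Right, the median position of each array between the sham mean (0) and the DBS mean (1) at changed features; DBS replicate 4 stands at 0.71 for features called higher.

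Calls were kept unevenly when single arrays were left out. Of the 1275 features, 623 (48.9%) passed in each of the 8 fits that left out 1 DBS or sham array, and 26 passed in none of them. Of the features called higher 496 of 877 (56.6%) passed in all 8 fits, and of those called lower 127 of 398 (31.9%); the difference between these shares was not tested. The features kept in all 8 fits had a median size of 0.48, and 206 of them differed by at least 1.5-fold. All 623 had no overlap, against 9.42% of all features, but passing in each of these fits itself favours that. Without sham replicate 4, 784 features passed and 755 of the original calls were shared, the lowest number among these fits. Among these fits, 2 more moved the total by over 1.5 times: 816 passed without DBS replicate 1 (778 shared) and 814 without sham replicate 3 (771 shared). The higher calls came to 566 without sham replicate 4 and to 581 without sham replicate 3. The lower calls depended on more of the arrays. They came to 187 without sham replicate 1, where 173 of the 398 (43.5%) were shared. They came to 218 without sham replicate 4, 223 without DBS replicate 1, 233 without sham replicate 3, and 262 without sham replicate 2 as well as without DBS replicate 3.

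The direction of a call was next read in arrays that had not made it. In each of 16 choices, 1 DBS and 1 sham array were held out, features were called on the other arrays, and the held-out DBS array was compared with the held-out sham array. The calls numbered 421 to 1048. Of the called features, a median of 93.6% differed in the same direction between the held-out arrays, with a range from 80.7% to 97.6%. Over all features, called or not, the direction matched for a median of 58%, ranging from 53.1% to 60.9%. The size of the held-out difference had a median of 0.9 times that of the calling arrays (0.46 to 1.24).

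The same was read for each direction. Calls for higher features kept their direction for 88.1% to 98% of features over the 16 choices, and calls for lower features for 58.9% to 96.6%. The lowest share came with DBS replicate 2 and sham replicate 2 held out, and with DBS replicate 2 the share for lower features stayed between 58.9% and 81.9%. With DBS replicate 4 held out the direction matched for 90.9% to 95.3% of called features, but the held-out difference was only 0.46 to 0.64 times as large. Features of 1 array share that array's deviations, so these shares are a description and carry no test.

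**Figure D3:**
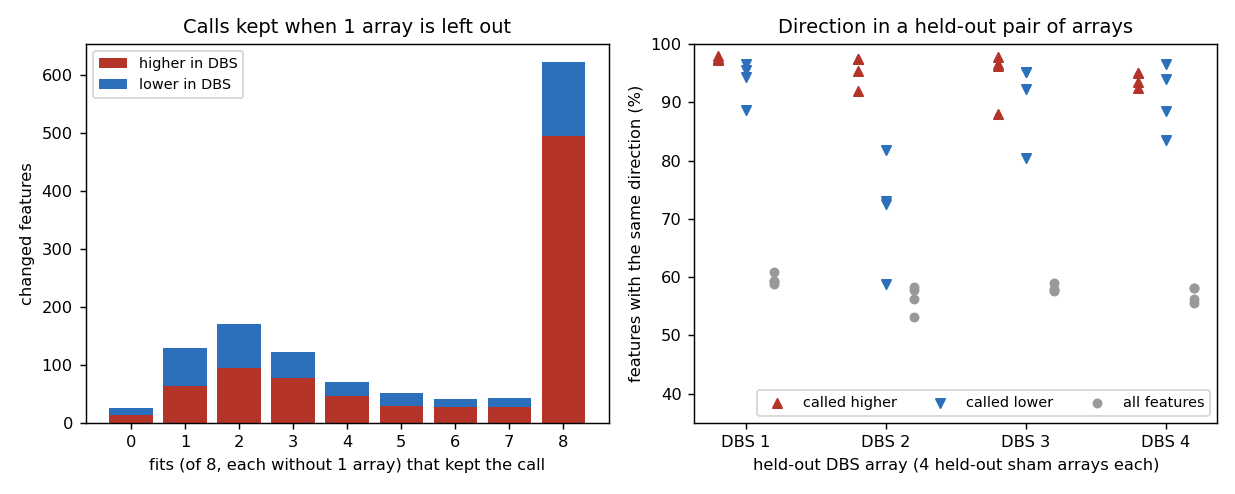
Left, the 1275 changed features by the number of the 8 fits, each without 1 DBS or sham array, in which they still passed; 623 passed in all 8. Right, the share of features (%) whose difference between a held-out DBS array and a held-out sham array had the direction of the call; red triangles are features called higher, blue those called lower, and grey points all features (53.1% to 60.9%).

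Features called higher and features called lower in DBS lay at different levels in naive hippocampus. Features were divided by their mean log2 ratio in the 3 naive arrays, which belong to neither group compared. Of the 6119 features under -0.25 in naive, which were lower in hippocampus than in the reference tissue, 464 (7.58%) were higher and 54 (0.882%) lower in DBS than in sham. Of the 5099 features over 0.25 in naive, 29 (0.569%) were higher and 236 (4.63%) lower in DBS. Over all features 1.94% were called higher and 0.88% lower, and between the limits of -0.25 and 0.25 the shares were 1.13% and 0.318%.

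At the upper end most features outside the near-identical sets described below lay lower in DBS. Of the 520 features with a naive mean over 1, 64 (12.3%) were called lower and 3 (0.577%) higher in DBS, and 19.4% had a positive difference, against 44.8% of all features. The median log2 ratio of these features was 1.25, 1.21, 1.16 and 1.27 on DBS replicates 1 to 4, and 1.38, 1.45, 1.29 and 1.33 on sham replicates 1 to 4. All 4 DBS arrays lay below all 4 sham arrays, but the nearest of them, DBS replicate 4 and sham replicate 3, were almost equal. The median difference of the class was -0.11, and that of all features -0.01. Features of the near-identical sets made up 146 of the 520. Among these 37.7% had a positive difference, with a median of -0.02 and 8 called lower, and sets 13, 14 and 15 had mean differences of 0.01, 0.0059 and -0.03. Among the other 374 features, 12.3% had a positive difference and 56 (15%) were called lower, with a median of -0.14. Their median log2 ratio was 1.16, 1.06, 1.07 and 1.19 on the DBS arrays and 1.28, 1.32, 1.22 and 1.25 on the sham arrays, again without overlap.

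The next class down showed the same order with less spread. For the 1369 features between 0.5 and 1 in naive, the median log2 ratio was 0.55, 0.52, 0.56 and 0.58 on the DBS arrays and 0.63, 0.64, 0.63 and 0.64 on the sham arrays. Again no arrays overlapped, and 92 features (6.72%) were called lower in DBS and 9 (0.657%) higher.

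At the lower end a minority of features moved while the class medians stayed close to 0. Of the 1863 features between -1 and -0.5 in naive, 171 (9.18%) were called higher in DBS and 18 (0.966%) lower, and the median difference of the class was 0.02. For the 756 features under -1, 46 (6.08%) were called higher and 12 (1.59%) lower, with a median difference of -0.02. Their median log2 ratio was -1.37, -1.18, -1.42 and -1.41 on the DBS arrays and -1.28, -1.35, -1.29 and -1.38 on the sham arrays. These overlapped, with DBS replicate 2 alone above the sham arrays. The 46 higher calls are not separate profiles, since near-identical features of the sets described below are among them. Sets 1 and 8 had naive means of -3.08 and -2.19, with 10 features called higher in each. Set 10 had a naive mean of -1.10, also with 10 features called higher. The calls of this class were not counted without the sets. Features called higher had a median level of 0.35 in DBS, -0.08 in sham and -0.27 in naive, and features called lower one of 0.05 in DBS, 0.37 in sham and 0.36 in naive. The DBS and sham means lay on opposite sides of the reference for 451 of the 877 features called higher (51.4%) and for 76 of the 398 called lower (19.1%). This share was not computed over all features, so it is not read as a trait of the changed features. The share of higher calls among changed features under -0.25 in naive was 89.6%; it was lowest, at 79.7%, without DBS replicate 2.

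**Figure D4:**
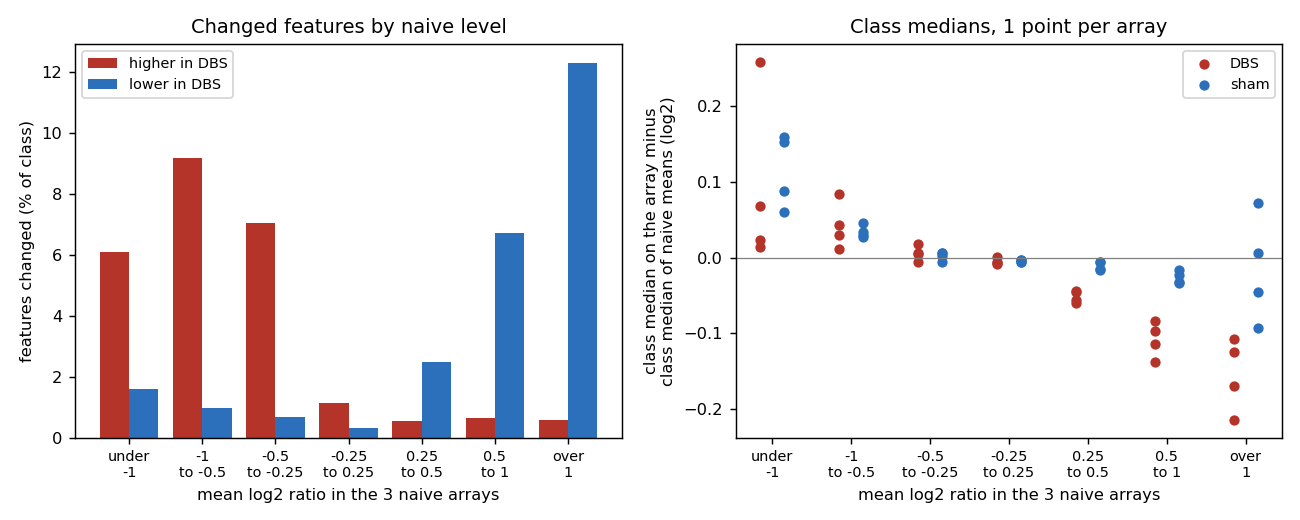
Left, the share of features (%) called higher (red) or lower (blue) in DBS than in sham, in 7 classes of the mean log2 ratio in the naive arrays. Right, the median log2 ratio of each class on each DBS (red) and sham (blue) array, minus the class median of the naive means; in the 3 highest classes the 4 DBS arrays lie below the 4 sham arrays.

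The values held 27 sets of near-identical features; whether they are repeated spots of single probes was not tested. They were picked out on the values of all 11 arrays, as features linked within a distance of 0.3, with a mean SD up to 0.1 within an array and far enough from the bulk, so they are described and not tested as sets. The sets held 5 to 68 features each. Within an array the features of a set had an SD of 0.0488 (median over sets; range 0.0349 to 0.0802). The SD between arrays of the set means had a median of 0.194 in DBS and 0.144 in sham. The limits of the search cap the first of these SDs, so it is no measure of the error within an array and is not compared with the spread between arrays. In 9 sets at least some features were called higher in DBS, in 2 sets some were called lower, and in 16 sets no feature passed. Of the 365 features in the sets 93 were called, against 2.82% of all features. A set could enter through its range over the arrays, which a difference between DBS and sham widens. These counts therefore follow in part from the search. Sets are numbered here from the largest increase (1) to the largest decrease (27), and each value is the mean log2 ratio of a set on an array.

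The 3 widest increases rested on uneven arrays. Set 1 (10 features, all called) stood at 1.61, 2.02, 2.54 and 0.27 in DBS, and at 0.62, -0.59, -1.43 and -1.68 in sham. The groups overlapped through DBS replicate 4 and sham replicate 1, and the sham arrays spread widely. Its mean difference was 2.38 (mean SE 0.50, limma adjusted p 0.0183 to 0.0263). At least 50% of its features passed in 3 of the 8 fits without 1 array; none passed without DBS replicate 1, 2 or 3 or without sham replicate 3 or 4, with the 8 arrays alone or with robust eBayes.

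Set 2 (9 features, 2 called) stood at 1.71, 1.42, 3.69 and 0.98 in DBS, and at 0.64, 0.29, -0.01 and -0.24 in sham. The groups did not overlap, and DBS replicate 3 was far above the other DBS arrays. The mean difference was 1.78 (mean SE 0.44, limma adjusted p 0.0416 to 0.0716), and the call hung on the setting. All 9 features passed without DBS replicate 3, at a difference of 1.198, and without DBS replicate 4, at 2.10. None passed without DBS replicate 1 or without any 1 of the sham or naive arrays, with the 8 arrays alone, with robust eBayes or with the replicate number as a block, and 1 passed without DBS replicate 2; under the other scalings, filter, prior and weights 2 to 9 passed. Set 3 (10 features, all called) stood at 1.74, 1.72, 2.43 and 0.58 in DBS, and at 0.39, -0.29, 0.64 and -0.31 in sham. DBS replicate 4 fell among the sham arrays. The mean difference of 1.51 (mean SE 0.32, limma adjusted p 0.0161 to 0.0285) passed for at least 50% of the features in 3 of the 8 fits; 0 to 4 features passed without DBS replicate 1, 2 or 3 or sham replicate 2 or 4, 1 with the 8 arrays alone and 0 with robust eBayes.

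Sets 4 to 7 were smaller and steadier, and every feature of these sets was called. Set 4 (10 features) stood at 1.47, 1.42, 1.72 and 0.58 in DBS, and at 0.24, 0.15, -0.33 and 0.15 in sham, a mean difference of 1.25. Set 5 (10 features) stood at 0.84, 0.74, 1.38 and 0.62 in DBS, and at 0.13, 0.22, -0.04 and -0.04 in sham, a mean difference of 0.83. In neither set did the groups overlap, and DBS replicate 4 was the lowest DBS array in each. Set 6 (10 features) stood at 0.59, 0.64, 0.77 and 0.43 in DBS, and at -0.06, 0.22, -0.33 and -0.17 in sham, a mean difference of 0.69. Set 7 (11 features) stood at 0.56, 0.74, 0.41 and 0.54 in DBS, and at 0.10, 0.25, -0.07 and 0.07 in sham, a mean difference of 0.48. In set 7 the lowest DBS array was replicate 3 and not replicate 4. The limma adjusted p over the features of sets 4 to 7 ran from 0.00183 to 0.0188, and at least 50% of each set's features passed in all 8 fits.

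Sets 8 and 10 lay below the reference in all DBS and sham arrays. Set 8 (10 features, all called) stood at -1.26, -1.04, -1.004 and -1.41 in DBS, and at -1.61, -1.55, -1.74 and -1.59 in sham. Set 10 (13 features, 10 called) stood at -0.67, -0.70, -0.95 and -0.62 in DBS, and at -1.12, -1.24, -1.16 and -1.02 in sham. The groups were separate in both, with DBS nearer to the reference by 0.44 in set 8 and 0.40 in set 10. DBS replicate 4 was the lowest DBS array in set 8 and the highest in set 10, so its weaker rise did not hold for every set. At least 50% of the features of set 8 passed in 5 of the 8 fits, with 3 or 4 left without DBS replicate 3, sham replicate 3 or sham replicate 4. Set 10 also held in 5, with 6 of its 13 features left without DBS replicate 1, sham replicate 2 or sham replicate 3.

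Called decreases were found in set 25 and, for a few features only, in set 22. Set 25 (10 features, 8 called) stood at 1.09, 0.57, 0.94 and 1.03 in DBS, and at 1.63, 1.58, 1.24 and 1.26 in sham. The groups did not overlap and the mean difference was -0.52 (mean SE 0.12, limma adjusted p 0.0161 to 0.0843). Without sham replicate 1 none of its features passed, 1 passed without sham replicate 2, and 3 passed without DBS replicate 3, with the 8 arrays alone or with the replicate number as a block. Set 22 (5 features, 2 called) differed by -0.20, at -2.39, -2.49, -2.57 and -2.55 in DBS and -2.31, -2.36, -2.22 and -2.33 in sham. After quantile normalization the difference was -0.016 and no feature was called. None was called either with equal SD of the arrays, with a trended prior, with the 8 arrays alone or with the replicate block, and 0 or 1 was called in each fit without 1 DBS or sham array. Set 23 (10 features) was not called at -1.64, -0.52, -1.42 and -1.66 in DBS and -0.98, -1.14, -0.91 and -1.15 in sham. Without DBS replicate 2, its only array above the sham arrays, the difference was -0.53 and all 10 of its features passed.

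The largest sets showed no called difference. Set 14 (68 features) averaged 1.54 ± 0.09 in DBS and 1.53 ± 0.13 in sham (SD, n = 4 each). Set 15 (35 features) averaged 1.83 ± 0.19 in DBS and 1.86 ± 0.11 in sham, and set 19 (32 features) -2.99 ± 0.08 in DBS and -2.83 ± 0.09 in sham (SD, n = 4 each). The lowest limma adjusted p among their features was 0.104, in set 19, where the mean difference was -0.15. That difference was -0.012 after quantile normalization and -0.085 with equal SD of the arrays.

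**Figure D5:**
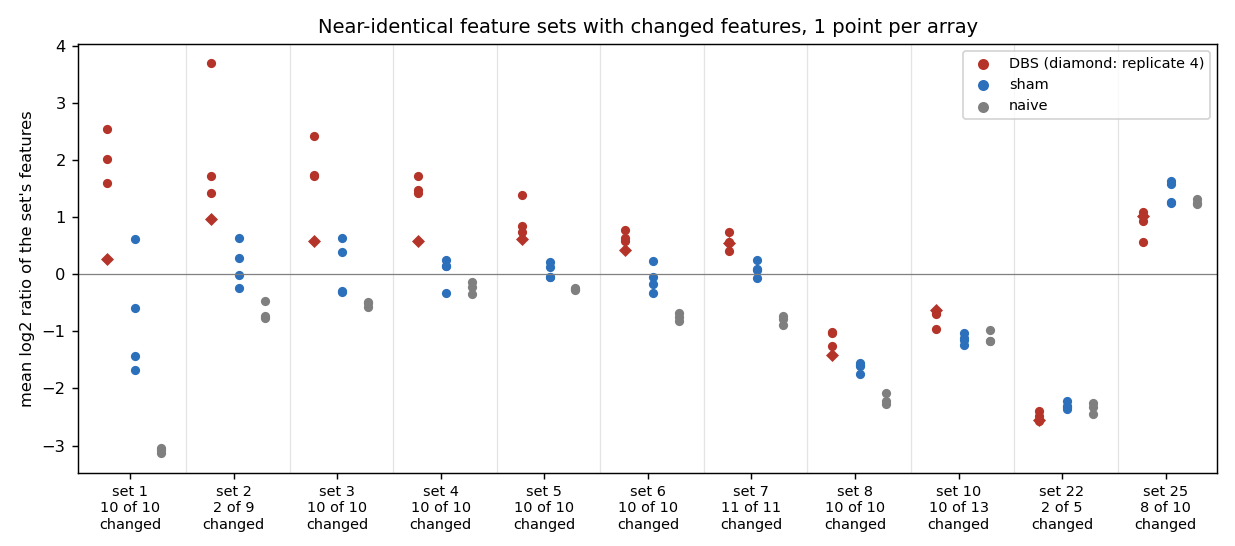
Mean log2 ratio of each near-identical feature set with at least 1 changed feature, 1 point per array, for DBS (red, replicate 4 as a diamond), sham (blue) and naive (grey) arrays. DBS and sham points overlap in sets 1 and 3 and are apart in the other 9 sets.

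Among single features, the largest changes that passed in all 8 fits and with the 8 arrays alone were features 12742 and 23843 upward and 18798 and 4623 downward. Feature 12742 stood at 2.23, 2.27, 2.35 and 0.48 in DBS, and at 0.22, -0.11, 0.12 and -0.02 in sham. It had no near-copy on the array, and 3 DBS arrays were close together while replicate 4 was just above sham. The difference was 1.78 (SE 0.32, limma adjusted p = 0.0102), a 3.43-fold higher level, and the call was lost with robust eBayes (limma adjusted p = 0.055). Its naive mean of -0.09 ± 0.11 (SD, n = 3) lay close to the sham mean of 0.05 ± 0.15 (SD, n = 4).

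Feature 23843 stood at 2.20, 1.84, 2.21 and 1.08 in DBS, and at 0.45, 0.06, -0.13 and 0.02 in sham. No arrays overlapped, and replicate 4 was again the lowest DBS array. The difference was 1.73 (SE 0.21, limma adjusted p = 0.00149), a 3.32-fold higher level. The feature passed in all 20 alternatives, some of which were conditions for naming it. Over the 11 arrays 18 other features of comparable variation had a profile that correlated with it at 0.98 or more, which is a likeness of profiles that contain the same group differences.

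Feature 18798 stood at -1.54, -2.24, -2.06 and -2.43 in DBS, and at 0.46, -0.86, -0.43 and -0.49 in sham. All DBS arrays were well below all sham arrays, and sham replicate 1 was the only one above the reference. The difference was -1.74 (SE 0.25, limma adjusted p = 0.00272), a 3.33-fold higher level in sham. The feature passed in all 20 alternatives, some of which were conditions for naming it. The naive arrays, at -2.65, -3.14 and -2.76, lay below those of DBS and sham.

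Feature 4623 stood at -0.39, -0.39, -0.98 and -0.87 in DBS, and at 0.61, 0.29, 0.79 and 0.48 in sham. The groups lay on opposite sides of the reference. The difference was -1.20 (SE 0.14, limma adjusted p = 0.00119), a 2.30-fold higher level in sham. The feature passed in all 20 alternatives, some of which were conditions for naming it. The naive arrays, at 1.08, 1.07 and 1.29, were higher still. Sham thus lay below naive at feature 4623 and above naive at feature 18798, and DBS lay below sham at both.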

How the data were processed

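The authors' deposited table held 1 log2 ratio per feature and array (log base, background correction, normalization, spot filters, slides and scan dates: not given in the sources used here, so no batch could be tested). Arrays had no missing value, and no depth applies: the number of arrays limits the precision. Amplification started from an oligo-dT primer, per the labels' protocols. Group means were fitted to all 45220 features over 11 arrays with lmFit, eBayes and treat (at 1.2-fold) of limma 3.58.1 under R 4.3.3. Benjamini-Hochberg adjustment ran over all features, with 0.05 as threshold. The fits were also run on simulated data with independent noise of equal spread in every group, without deviations shared by an array. The labels call the arrays biological replicates. Named features are at most 2 in each direction: the largest differences without overlap that passed in the main fit, in all 8 fits without a DBS or sham array and with the 8 arrays alone, leaving out near-copies (distance up to 0.5 or correlation from 0.98). Sets link features within 0.3 of each other over the arrays (5 or more features, mean SD up to 0.1, mean absolute log2 ratio from 0.9 or range from 1.5; the last 2 limits were chosen after seeing the data). The comparison, the lists and the tests were chosen with earlier results of these data known. A planned comparison of the median absolute log2 ratio between groups was void, since all arrays have the same value. The alternatives were other scalings, filters, spreads, weights, a block for the replicate number, and fits without single arrays.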

Additional observations from a re-analysis of the deposited data

Results flagged for a closer look

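In each group of 4 arrays, 1 array was looked for that stood apart from the other 3 by most of the group's range (Dixon's criterion). Of 80 groups of values tested, 8 were marked. Among independent groups of values chance marks about 1 in 20. Sets were admitted in part by their range over the arrays, which 1 outlying array widens, and the groups share the same arrays. The count of 8 is therefore not set against that rate. In DBS, set 9 (6 features) was at 1.76 on replicate 1 and between -0.11 and -0.07 on the other 3 arrays, while the sham arrays lay between -0.057 and -0.0011; none of its features was called. Set 15 was at 1.54 on DBS replicate 3, against 1.89 to 1.95 on the other DBS arrays. Set 20 (10 features) was at -0.75 on DBS replicate 2, against -1.28 to -1.21. Feature 12742 was at 0.48 on DBS replicate 4, against 2.23 to 2.35.

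In sham, replicate 3 stood apart in 3 sets: in set 4 at -0.33, against 0.15 to 0.24 on the other sham arrays; in set 16 (12 features) at 0.86, against 1.21 to 1.27; and in set 17 (10 features) at 1.84, against 0.76 to 0.90. Set 21 (9 features) was at 2.64 on sham replicate 2, against 2.46 to 2.48.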

How the results depend on the processing

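The direction of the comparison did not turn under any alternative run for the counts, the 4 named features, the called sets or level classes. The named features passed in 79 fits and missed the threshold in 1. Passing with the 8 DBS and sham arrays alone, and without each of these, was a condition for naming, which fixed those passes. Median centring, quantile normalization, equal SD of the arrays (added after seeing the data), robust eBayes and array weights gave 1265 to 1340 changed features. With only the 8 DBS and sham arrays 806 passed (200 of them lower), and 11 by more than 1.2-fold. With the prior spread trended on the mean absolute log2 ratio 1086 passed, 279 of them lower. Without the 25% of features with the lowest SD, which tests fewer, 1208 passed, 346 of them lower, and 110 passed the 1.2-fold test. With the replicate number as a block 892 passed, 213 of them lower, and 98 by more than 1.2-fold. Deviations of DBS and sham arrays of the same number correlated at -0.122 to 0.104, and 1 of 4 DBS arrays correlated best with its own number. Whether the numbers pair the arrays was not tested, nor were the causes of these shifts in the counts. With quantile normalization 94.5% of changed features under -0.25 in naive were higher. Leaving out single arrays gave 784 to 1297 changed features, 566 to 943 higher, 187 to 410 lower, 10 to 228 by more than 1.2-fold, and 5584 to 6562 features without overlap (fewer arrays overlap less often by construction). It gave 0.0397 to 0.0595 for the correlation within minus between groups. The share of higher calls under -0.25 in naive was 79.7% to 94.1%, the share of lower calls over 0.25 was 81.5% to 91.6%, and the median difference over 1 was -0.13 to -0.09. No signal over background could be computed.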

Other observations

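Changed features were spread over the whole range of feature numbers. In 10 equal blocks of 4522 consecutive numbers, 2.45% to 3.27% of features changed between DBS and sham, against 2.82% over all features, and the median difference of a block lay between -0.014 and -0.0075. Set 26 (10 features, none called) stood at -1.03, -0.72, -0.90 and -0.89 in DBS and at -0.62, -0.51, 0.68 and -0.78 in sham. Set 27 (8 features, none called) stood at -0.60, -0.78, -0.10 and -0.22 in DBS and at 0.02, 0.77, -0.54 and 1.17 in sham, the largest mean decrease of all sets (-0.78), with overlapping arrays.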
